A study of Mus musculus with 23 samples.

Results

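The translated RNA of direct pathway and indirect pathway medium spiny neurons (MSNs), the GABAergic projection neurons that make up most of the striatum, was compared 40 min after a single dose of LDOPA in mice with a dopamine lesion. The comparison was chosen by sample title: 7 arrays titled DRD1 with saline were set against 4 arrays titled DRD2 with saline, which is 11 of the 23 arrays of the study. They came from DRD1A EGFP-L10a expressing Bac mice and from DRD2 EGFP-L10a expressing Bac mice, called DRD1A MSNs and DRD2 MSNs here. In both lines a bacterial artificial chromosome puts the ribosomal protein L10a, fused to a green fluorescent protein, under the promoter of the named dopamine receptor gene (line CP73 for DRD1A, line CP101 for DRD2), so that ribosomes of the expressing cells and the RNA on them can be pulled out of whole striatum (translating ribosome affinity purification, TRAP). The DRD2 promoter is also used by striatal cholinergic interneurons, and each construct is represented by 1 line.

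All mice were C57BL/6J/Swiss-Webster, were killed at the age of 71 days, and had been given 6-OHDA, a toxin that kills dopamine neurons, on 1 side of the brain at 35 days. Both groups then received saline 2 times a day for 21 days and on day 22 a first dose of 6 mg/kg LDOPA methyl ester with 15 mg/kg benserazide, an inhibitor that keeps LDOPA from being converted outside the brain. "Saline" in the titles therefore names the earlier injections, and no array of the study came from a mouse that had no LDOPA. The chronic groups, 8 arrays of DRD1A MSNs and 4 of DRD2 MSNs by their labels, had LDOPA in place of saline over the 21 days. Their difference is compared at the end. Their arrays also entered the normalization, the filter on low signals and the estimate of spread behind every acute SE and p-value. The study's methods and the labels give the sizes of the acute DRD2 and the chronic DRD1A groups the other way round, so that the mismatch touches DRD2 MSNs of this comparison; the labels were followed. Each array held the striatum of the lesioned side of 1 mouse.

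Dopamine acts on these neurons through 2 families of receptor. The D1 receptor, on MSNs that project directly to the substantia nigra, couples to Golf and raises cyclic AMP, which drives protein kinase A, the MAP kinase cascade and immediate early gene transcription. The D2 receptor, on MSNs that project to the external globus pallidus, couples to Gi and lowers cyclic AMP. After dopamine loss the D1 pathway becomes supersensitive, and LDOPA then induces immediate early genes mainly in direct pathway neurons. The lines also differ in their peptides: direct pathway neurons make dynorphin and substance P, and indirect pathway neurons make enkephalin.

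Signals are given below as log2 of the quantile normalized bead intensity, a difference is DRD1A MSNs minus DRD2 MSNs in log2 units with its standard error (SE), and "called" means an adjusted p below 0.05 (limma, Benjamini-Hochberg over all 32255 probes tested). Arrays are named by BeadChip (1 to 4) and position. Between 14721 and 17443 probes were detected above background on the DRD1A arrays and between 13114 and 15212 on the DRD2 arrays. Arrays of DRD1A MSNs correlated with each other at r = 0.887 to 0.926, arrays of DRD2 MSNs at 0.841 to 0.881, and arrays of different lines at 0.852 to 0.909. The DRD2 arrays were thus no more alike among themselves than they were to DRD1A arrays. BeadChip 1 held 4 of the 7 DRD1A arrays and no DRD2 array of this comparison, and its lowest signals (65.9 to 69.5, unlogged) lay below those of the other BeadChips (94 to 118.7).

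Genes that define the 2 cell types had most of the smallest p-values, and 8 of the called genes were markers of a pathway. Of 23008 genes tested, 49 were called (0.213%): 32 were higher in DRD1A MSNs (0.139%) and 17 were lower (0.0739%), represented by 34 probes (0.105% of all probes) and 17 probes (0.0527%), 51 in all (0.158%). The lowest p-values belonged to the gene DRD2 and the enkephalin precursor PENK1 on the lower side and to the dynorphin precursor PDYN, SFXN1, EYA1 and PKIB on the higher side. The median difference over all genes tested was -0.01, and the smallest difference among called probes was 0.40 in size. In 46 of the 51 called probes the arrays of the lines did not overlap, the exceptions being DUSP1, BBS9, COQ10B, KLHL12 and a gene with a RIKEN name. Over all probes tested the groups were apart in 253 with DRD1A MSNs higher (0.784%) and in 228 with DRD1A MSNs lower (0.707%). With the BeadChip as a fixed block 9 of the 49 genes were called (DRD2, PDYN, SFXN1, EYA1, PENK1, BAG1, RASGRP2 and 2 with RIKEN names). The other 40 were not, and the block value is given below for only some of them.

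The transcript of the D2 receptor itself, DRD2 (probe 4850301), had signals of 7.11 at the lowest, 7.36 at the median and 7.70 at the highest of the DRD1A arrays, against 11.34, 11.46, 11.19 and 11.04 on the DRD2 arrays 2C, 2F, 3E and 4F, the order used throughout. Every DRD1A array lay near the floor of the signal range and every DRD2 array far above it. The difference was -3.83 (SE 0.175, adjusted p = 1.16e-10), a 14.2-fold lower signal in DRD1A MSNs. It was -4.04, -3.55 and -3.93 within BeadChips 2, 3 and 4, where both lines were run side by side. The intensities were used here with their background. With normexp background correction the difference of DRD2 was -5.51, that of EYA1 4.62 and that of KIF1A -3.27, and all 49 called genes had a larger one than without it.

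PENK1 (probe 2260520), which encodes the enkephalin precursor of indirect pathway neurons, had signals of 7.47, 8.46 and 8.81 (lowest, median and highest) in DRD1A MSNs, against 11.51, 12.06, 10.26 and 11.42 in DRD2 MSNs. The groups did not overlap, and 3E was the lowest of the DRD2 arrays. PENK1 was 8.04-fold lower in DRD1A MSNs (difference -3.01, SE 0.377, adjusted p = 9.73e-04).

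On the other side, PDYN (probe 3610332), the dynorphin precursor of direct pathway neurons, had signals of 10.68, 11.21 and 12 in DRD1A MSNs, against 8.50, 9.16, 8.30 and 7.77 in DRD2 MSNs. The groups were well apart, with 1E the highest DRD1A array and 4F the lowest DRD2 array. PDYN was 6.92-fold higher in DRD1A MSNs (difference 2.79, SE 0.286, adjusted p = 1.02e-04). A second PDYN probe, detected on 5 of the DRD1A arrays and on 0 of the DRD2 arrays, differed by 0.16 (adjusted p = 0.822).

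SFXN1 (probe 2900592), a mitochondrial serine transporter, had signals of 10.49, 10.89 and 11.17 in DRD1A MSNs, against 8.45, 7.57, 7.53 and 9.16 in DRD2 MSNs. The DRD1A arrays were tightly grouped and all lay above the DRD2 arrays, among which 4F was the highest. SFXN1 was 6.56-fold higher in DRD1A MSNs (difference 2.71, SE 0.302, adjusted p = 2.56e-04), and its other probe was called as well (2.07, SE 0.347, adjusted p = 0.0202).

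EYA1 (probe 3800678), a transcriptional coactivator with phosphatase activity, had signals of 8.70, 9.65 and 10.12 in DRD1A MSNs, against 7.08, 6.95, 7.07 and 7.08 in DRD2 MSNs. It was detected on all 7 DRD1A arrays and on 0 of the 4 DRD2 arrays, so that only a bound holds. EYA1 was at least 4.46-fold higher in DRD1A MSNs, setting the mean of its DRD1A arrays against the lowest signal detected on each DRD2 array (adjusted p = 4.14e-04). A second EYA1 probe was called (2.55, adjusted p = 9.73e-04), while the brightest of its 3 probes differed by 1.33 (adjusted p = 0.17), with the DRD2 array 3E at 11.91 among the DRD1A arrays.

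The transcript of the D1 receptor, DRD1A (probe 4860307), had signals of 8.81, 9.18 and 10.11 in DRD1A MSNs, against 8.42, 7.46, 7.31 and 7.47 in DRD2 MSNs. All DRD1A arrays were above all DRD2 arrays, but the DRD2 array 2C stood apart from the other 3. The difference of 1.72 (SE 0.433) did not pass the test over all probes (adjusted p = 0.132). On the same array the substance P precursor TAC1 stood at 9.71, against 7.62 to 7.96 on the other DRD2 arrays and 8.83 to 10.23 on the DRD1A arrays. TAC1 differed by 1.36 (adjusted p = 0.263), and by 1.85 without 2C, an array singled out for this very value.

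**Figure D1:**
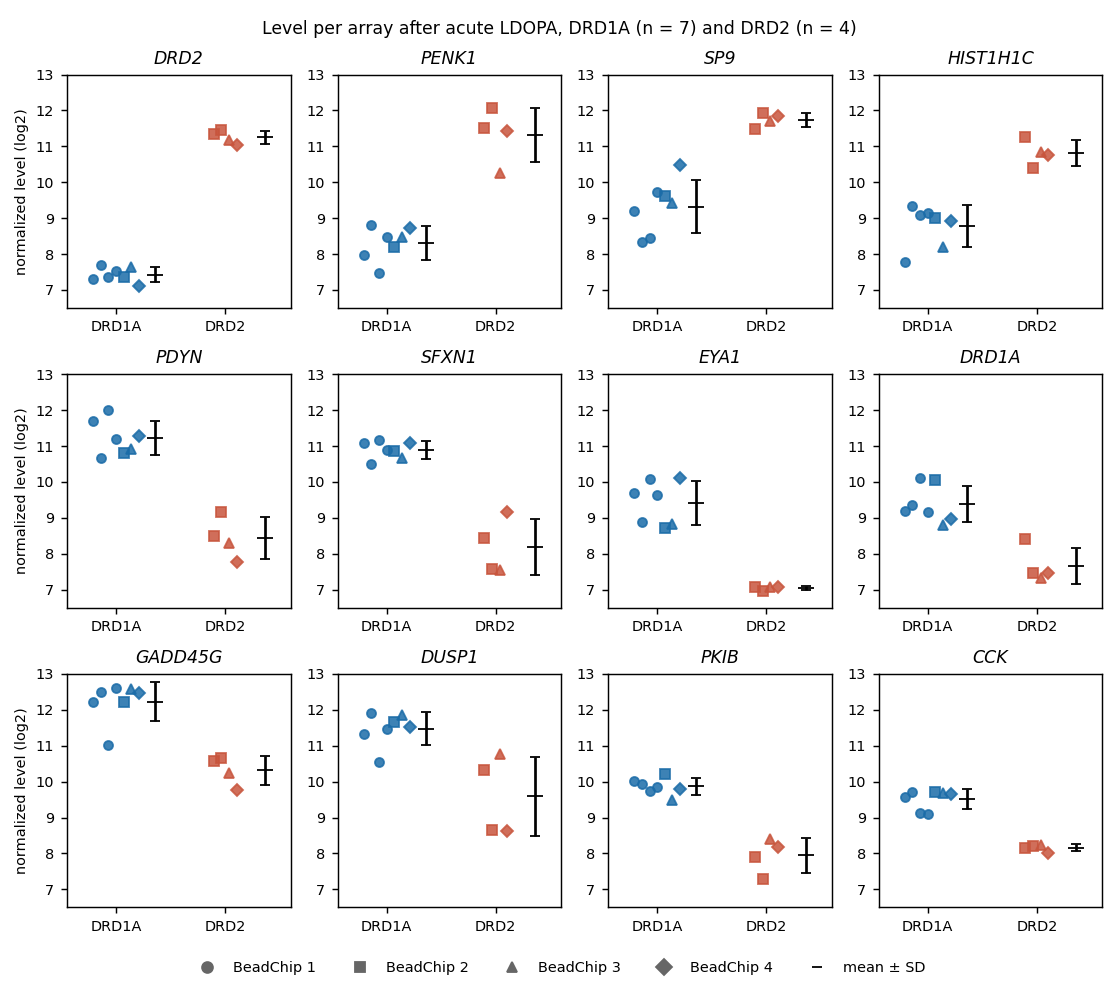
Normalized log2 signal (y axis) of 12 genes on every array of the comparison, with DRD1A MSNs (7 arrays) left of DRD2 MSNs (4 arrays) in each panel, marker shape giving the BeadChip and bars the mean ± SD. DRD2 and PENK1 lie low in DRD1A MSNs and high in DRD2 MSNs, PDYN, SFXN1 and EYA1 lie the other way with no overlap, and for DUSP1 the array 3E of DRD2 MSNs reaches into the DRD1A range.

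As lists, the markers of each pathway lay mostly on their own side. Of 10 direct pathway markers 5 were called, all higher in DRD1A MSNs (PDYN, SFXN1, EYA1, ISL1 and SLC35D3), while 0.213% of all genes were called. The median difference of the 10 was 1.43 against -0.01 over all genes. The groups were apart in 6 (over all genes 0.826% were apart with DRD1A MSNs higher). The other direct pathway markers were DRD1A and TAC1, given above, and CHRM4, EBF1 and ZFP521, at -0.08, 0.15 and 0.25. CHRM4, the M4 muscarinic receptor gene, was detected on 2 of 7 DRD1A arrays and 2 of 4 DRD2 arrays. Of 9 indirect pathway markers 8 passed the filter on low signals, and 3 were called (DRD2, PENK1 and SP9). All 8 had a negative difference, with a median of -0.85 (46.1% of all genes were above 0). ADORA2A, the adenosine receptor gene of indirect pathway neurons, was near background on all arrays and differed by -0.03. UPB1 and PLXDC1 were also low and differed by only -0.04 and -0.18. TTC12, which also lies beside Drd2 in the genome, differed by -0.48. GPR6, an orphan receptor of striatopallidal neurons, had signals of 6.97, 7.09 and 7.20 in DRD1A MSNs, against 9.77, 8.44, 7.43 and 7.54 in DRD2 MSNs, where the groups were apart but the difference of -1.22 was not called (adjusted p = 0.24).

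The mean signal of the direct pathway markers lay between 8.74 and 9.30 on the DRD1A arrays, against 7.46 to 7.83 on the DRD2 arrays. That of the indirect pathway markers lay between 7.35 and 7.76 on the DRD1A arrays, against 8.70 to 9.25 on the DRD2 arrays. Each of the 11 arrays therefore carried the markers of its label, and 2C was the DRD2 array with the highest direct pathway level (7.83). Markers shared by all MSNs had a median difference of -0.57. Of 14 measured 12 had a negative difference (46.1% of all genes were above 0), 7 had an unadjusted p below 0.05 (9.48% of all genes) and none was called. In RNA pulled out of striatum, fewer cells of a type, less RNA per cell and more RNA from other cells cannot be told apart.

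The genes beside the receptor genes could be carried along on a bacterial artificial chromosome. Of 20 such genes 15 were measured and 1 was called (0.213% of all genes were). It was SFXN1, the next gene to Drd1 in the RefSeq order. ANKK1 and TTC12, the nearest genes on one side of Drd2, differed by -0.53 (adjusted p = 0.237) and -0.48 (adjusted p = 0.0797), and CPLX2, further along from SFXN1, by 0.33 (adjusted p = 0.8). Whether extra copies on the transgene take part in the SFXN1 difference was not tested. RPL10A, the gene of the protein that carries the tag, differed by 0.09 (adjusted p = 0.95).

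The 250 bases before the start of Drd1 and of Drd2, the genes whose promoters separate the 2 lines, are shown as a reference for the motif count below (RefSeq, GRCm38.p6, read 5′ to 3′ on the strand of the gene, and for Drd1 before the more upstream of its 2 listed starts).
Drd1, chr13:54055659-54055908, minus strand: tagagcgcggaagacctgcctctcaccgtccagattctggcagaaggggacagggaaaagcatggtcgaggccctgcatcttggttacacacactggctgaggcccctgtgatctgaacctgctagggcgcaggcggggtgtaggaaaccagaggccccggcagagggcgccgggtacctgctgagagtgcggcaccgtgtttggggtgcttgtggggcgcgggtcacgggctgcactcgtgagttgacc
Drd2, chr9:49340153-49340402, plus strand: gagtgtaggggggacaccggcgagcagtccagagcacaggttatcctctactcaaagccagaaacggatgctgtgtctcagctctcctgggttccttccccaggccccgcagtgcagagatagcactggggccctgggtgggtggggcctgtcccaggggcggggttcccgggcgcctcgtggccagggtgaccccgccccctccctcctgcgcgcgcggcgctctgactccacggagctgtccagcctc
Neither holds the cyclic AMP response element TGACGTCA nor its core TGACG on either strand.

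Beyond the pathway markers, the called genes that were higher in DRD1A MSNs included PKIB, PDE1A, PPP1R2 and CIB2. PKIB, an inhibitor of protein kinase A, had signals of 9.48, 9.85 and 10.21 in DRD1A MSNs, against 7.91, 7.29, 8.40 and 8.19 in DRD2 MSNs. The groups were more than 1 log2 unit apart at their nearest arrays, and the difference was 1.92 (SE 0.246, adjusted p = 9.73e-04, and 0.0512 with the BeadChip block). PDE1A, a calcium and calmodulin dependent phosphodiesterase, was higher by 1.20 (SE 0.213, adjusted p = 0.0217), and its other probes differed by 1.23 and 1.17 without being called. PPP1R2, an inhibitor of protein phosphatase 1, was higher by 1.16 (adjusted p = 0.0284), and CIB2, a calcium binding protein, by 1.09 (adjusted p = 0.0399). Of 34 measured genes of dopamine and cyclic AMP signalling only PKIB was called, and their median difference was -0.08.

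GADD45G, a stress and activity induced gene that acts upstream of p38 and JNK kinases, had signals of 11.02, 12.48 and 12.61 in DRD1A MSNs, against 10.56, 10.66, 10.24 and 9.77 in DRD2 MSNs. The groups were apart, and the array 1E was the lowest DRD1A array by more than 1 log2 unit. GADD45G was 3.79-fold higher (difference 1.92, SE 0.312, adjusted p = 0.0159, with the block 0.0577). DUSP1, an immediate early phosphatase that switches off MAP kinases, had signals of 10.56, 11.52 and 11.91 in DRD1A MSNs, against 10.32, 8.65, 10.76 and 8.63 in DRD2 MSNs. The groups overlapped, since the DRD2 array 3E exceeded the DRD1A array 1E, and the difference was 1.88 (SE 0.372, adjusted p = 0.0431, with the block 0.134). DUSP1 was the only one called of 15 measured MAP kinase phosphatases and feedback inhibitors, whose median difference was -0.02. None of 23 MAP kinase core genes was called, and 3 had an unadjusted p below 0.05 (9.48% of all genes did). The smallest p was that of MAP2K1 (0.60, adjusted p = 0.0879).

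CCK, the cholecystokinin precursor, had signals of 9.11, 9.65 and 9.72 in DRD1A MSNs, against 8.15, 8.20, 8.23 and 8.01 in DRD2 MSNs. The 4 DRD2 arrays were nearly level and all lay below the DRD1A arrays, with a difference of 1.36 (SE 0.229, adjusted p = 0.0202, with the block 0.114). With PDYN and PENK1 it made 3 called of 16 neuropeptide precursors measured (0.213% of all genes were called). Cortical excitatory neurons, whose axons end in the striatum, also make CCK, and their markers are given with the other cell types below.

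Of 23 transcription factors of MSN identity 3 were called (0.213% of all genes were). ISL1, a LIM homeodomain factor of direct pathway neurons, had signals of 8.27, 8.89 and 9.49 in DRD1A MSNs, against 7.46, 7.39, 7.65 and 7.53 in DRD2 MSNs. Every DRD2 array lay near the floor, and the difference was 1.49 (SE 0.286, adjusted p = 0.0385, with the block 0.244). SP9, a zinc finger factor needed for the development of indirect pathway neurons, had signals of 8.35, 9.43 and 10.48 in DRD1A MSNs, against 11.48, 11.93, 11.70 and 11.83 in DRD2 MSNs. The DRD2 arrays were level and the DRD1A arrays were spread over more than 2 log2 units, 4B being the highest. SP9 was 5.33-fold lower in DRD1A MSNs (difference -2.42, adjusted p = 0.0393, with the block 0.181). The other called factor of the list was EYA1, and outside it ZFP354A, a zinc finger protein, was lower by 1.52 with DRD1A arrays between 7.07 and 7.49 and DRD2 arrays between 8.16 and 9.73.

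Chromatin genes were called in both directions. HIST1H1C, a linker histone, had signals of 7.77, 9 and 9.33 in DRD1A MSNs, against 11.27, 10.38, 10.84 and 10.77 in DRD2 MSNs. The groups were separated by about 1 log2 unit, and the difference was -2.04 (SE 0.34, adjusted p = 0.0202, with the block 0.134), with -1.81 at its other probe (adjusted p = 0.0949). H3F3B, which encodes the replication independent histone H3.3, was higher by 1.20 (SE 0.211, adjusted p = 0.0214). Of 56 histone genes of the list HIST1H1C alone was called, and the others ran in both directions, for example HIST1H2BC at -1.11 (adjusted p = 0.108) and HIST1H4F at 1.25 (adjusted p = 0.129). Histone genes lie in clusters of near-identical sequence, so that a probe may read more than one of them.

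Among the genes that were lower in DRD1A MSNs were KIF1A, LAMP2 and FARP2. KIF1A, a kinesin that carries synaptic vesicle precursors along axons, had signals of 7.06, 7.20 and 8.19 in DRD1A MSNs, against 8.72, 9.18, 9.16 and 8.66 in DRD2 MSNs. It was detected on 3 of the 7 DRD1A arrays and on all 4 DRD2 arrays, and the difference was -1.60 (SE 0.282, adjusted p = 0.0214, with the block 0.125). LAMP2, a lysosomal membrane protein, was lower by 1.62 (SE 0.297, adjusted p = 0.0284) and by 1.57 at a second probe (adjusted p = 0.0783), with 4 further probes between -0.50 and 0.05. FARP2, an exchange factor for small GTPases, was lower by 1.53 (adjusted p = 0.0284). STMN2, a neuronal microtubule regulator, went the other way (1.17, SE 0.23, adjusted p = 0.0431). KIF1A and LAMP2 were the only ones called among 29 kinesins and 20 lysosomal genes, whose medians were -0.07 and 0.03.

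RASGRP2, a calcium and diacylglycerol regulated activator of Rap1 that marks the striatal matrix, had signals of 7.89, 8.46 and 9.46 in DRD1A MSNs, against 10.04, 9.94, 9.79 and 9.50 in DRD2 MSNs. The highest DRD1A array, 1E, came close to the lowest DRD2 array without crossing it. RASGRP2 was 2.47-fold lower in DRD1A MSNs (difference -1.30, SE 0.227, adjusted p = 0.0213). The other 3 matrix markers were not called, and the list had a median of -0.16. No striosome marker was called, and the 4 measured had a median of -0.09.

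The remaining called genes covered other functions. BAG1, a cochaperone of heat shock protein 70, had signals of 10.41, 10.89 and 11.38 in DRD1A MSNs, against 10.29, 9.52, 9.36 and 9.91 in DRD2 MSNs. Its groups were apart only narrowly, at 2C, but its spread was small (difference 1.13, SE 0.175, adjusted p = 0.0125). TUSC1, a gene described as a tumour suppressor candidate, was higher by 1.33 (SE 0.211, adjusted p = 0.0154). FABP3, a fatty acid binding protein, was higher by 1.30 (SE 0.21, adjusted p = 0.0159). CRYM, a thyroid hormone binding protein, was higher by 1.49 (SE 0.258, adjusted p = 0.0213), COQ10B, which binds coenzyme Q, by 1.45 (adjusted p = 0.0431), and TXN1, thioredoxin, by 0.81 (adjusted p = 0.0284). TNNT1, slow skeletal troponin T, had signals of 9.67, 10.07 and 11.13 in DRD1A MSNs, against 8.51, 8.49, 9.65 and 8.06 in DRD2 MSNs. The array 3E of DRD2 MSNs nearly reached the lowest DRD1A array, and the difference was 1.73 (SE 0.339, adjusted p = 0.0422, with the block 0.261). BBS9, a subunit of the ciliary BBSome, was higher by 1.77 (SE 0.355, adjusted p = 0.0487), with the DRD2 array 4F inside the DRD1A range.

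NEUROD2, a neuronal bHLH factor of the cortex, was higher by 0.86, and SLC35D3, an orphan transporter of direct pathway neurons, by 1.28. DVL3, a Wnt signal transducer, was at least 1.68-fold higher, since it was detected on 0 of the 4 DRD2 arrays. On the lower side were KLHL12, an adaptor of a ubiquitin ligase (-1.13, adjusted p = 0.0239), LRRC8B, a volume regulated channel subunit (-0.89, adjusted p = 0.0213), PGBD1, a transposase derived protein (-0.73), DHX16, a splicing helicase (-0.57, adjusted p = 0.0214), and ASCC3, a helicase (-0.40). A330046P14RIK, the ninth by p-value, was lower by 0.43 (SE 0.0682, adjusted p = 0.0157). It and 8 other called genes carry RIKEN, clone or predicted names in the array's own annotation, some of which have since been given gene names. Of the 49 called genes 21 had other probes that passed the filter, 34 in all, and 23 of the 34 had the sign of the called probe while 2 were called.

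**Figure D2:**
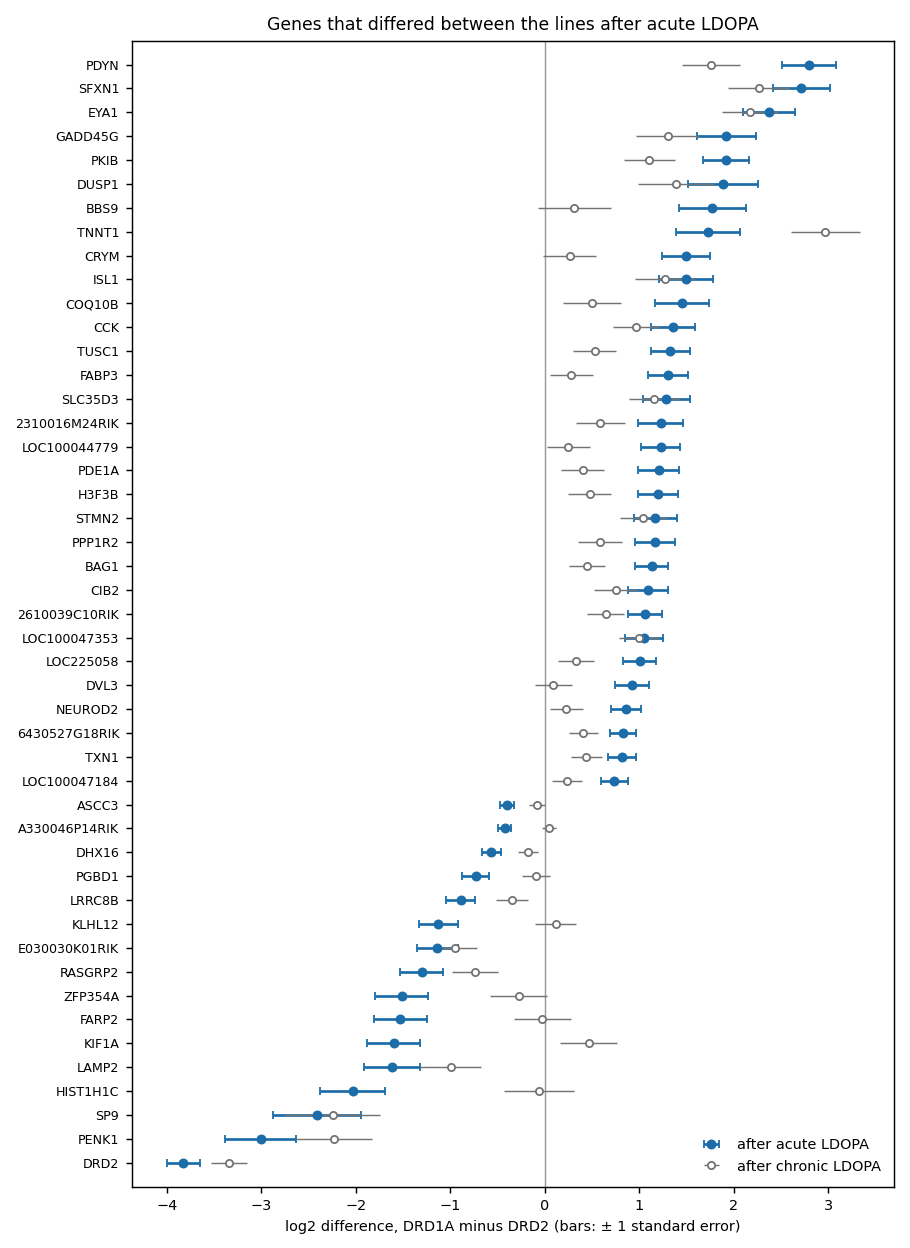
Log2 difference between DRD1A MSNs and DRD2 MSNs (x axis, ±1 SE) of 47 of the called genes, ordered by the difference, after acute LDOPA (filled) and after chronic LDOPA (open). The acute values run from -3.83 for DRD2 to 2.79 for PDYN, and nearly all open symbols lie nearer 0 than the filled ones, TNNT1 being the exception.

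The immediate early genes, transcription factors and effectors that neurons switch on within minutes of stimulation, lay mostly above 0, yet none of the list passed the test. DUSP1, which did pass, was counted with the MAP kinase phosphatases above. Of 19 measured 17 had a positive difference, which is 89.5%, against 46.1% of all genes tested. Their median difference was 0.82, and 11 had an unadjusted p below 0.05 (9.48% of all genes did). The groups were apart in 4, FOSB, EGR3, EGR4 and NR4A2, all with DRD1A MSNs higher (0.826% of all genes). FOSB, an AP-1 subunit, had signals of 8.69, 10.02 and 10.32 in DRD1A MSNs, against 7.87, 8.22, 8.21 and 8.27 in DRD2 MSNs. The 1E array was the lowest DRD1A array and the DRD2 arrays were level, and the difference was 1.69 (SE 0.433, adjusted p = 0.145). EGR4, a zinc finger factor, had signals of 9.35, 10.02 and 10.99 in DRD1A MSNs, against 8.33, 8.92, 9.13 and 7.13 in DRD2 MSNs. It too differed by 1.69 (adjusted p = 0.145). ARC, a postsynaptic effector, had signals of 9.12, 10.87 and 11.38 in DRD1A MSNs, against 8.34, 8.32, 10.43 and 8.70 in DRD2 MSNs. Its difference was 1.72 (SE 0.43, adjusted p = 0.128), that of FOS 1.55 (adjusted p = 0.109) and that of BTG2 1.86 (adjusted p = 0.35).

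The spread of these genes followed 2 arrays. The DRD1A array 1E was the lowest of its group in 13 of the 19 immediate early genes (15% of all probes), and the DRD2 array 3E was the highest of its group in 10 of the 19 (25.2% of all probes). The mean signal of the list was 8.78 on 1E and 9.35 to 9.69 on the other DRD1A arrays, against 8.95 on 3E and 8.40 to 8.59 on the other DRD2 arrays. With 1E left out, an array singled out here because it was low in these genes, the list had a median of 0.96 and 5 of its genes were called. They were FOS (1.75, adjusted p = 0.0464), ARC (1.97, adjusted p = 0.0455), NR4A1 (0.89, adjusted p = 0.0183) and, named here after their values were seen, EGR1 (0.96, adjusted p = 0.00384) and EGR2 (1.61, adjusted p = 0.0063). On all arrays NR4A1 differed by 0.78 (adjusted p = 0.0882), EGR1 by 0.82 (adjusted p = 0.0882) and EGR2 by 1.27 (adjusted p = 0.248), each with overlapping groups. With 3E left out the median was 0.87 and 1 gene was called, while 0 were called without 2C, with the BeadChip as a fixed block, with normexp and with median centering (medians 0.83, 0.71, 1.23 and 0.74). The part of these arrays in the result was not tested further.

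**Figure D3:**
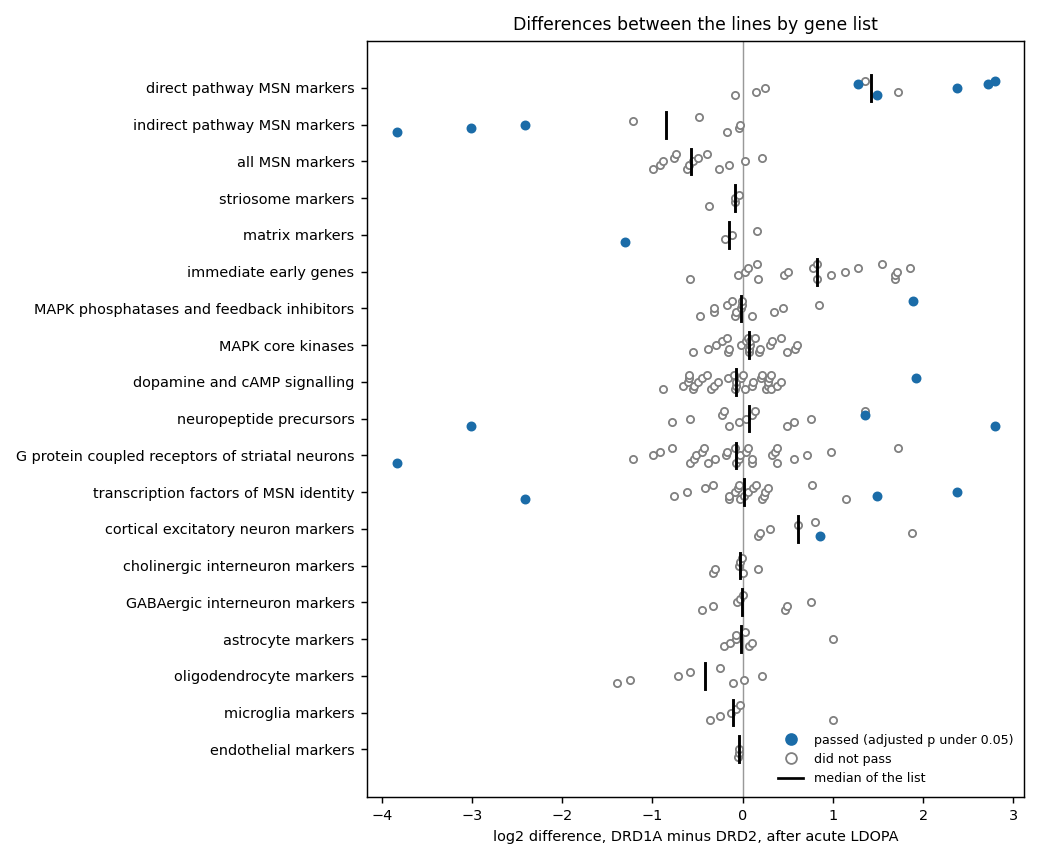
Log2 difference between DRD1A MSNs and DRD2 MSNs (x axis) of every measured gene in 19 gene lists, with filled points for called genes, open points for the rest and a bar at each list's median. The direct pathway markers have a median of 1.43, the indirect pathway markers -0.85 and the immediate early genes 0.82. The median of the MAP kinase core genes lies near 0 (0.07).

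The promoters of DUSP1, CCK and ISL1 are shown because these called genes hold the cyclic AMP response element or its core within 250 bases before their start (RefSeq, GRCm38.p6, strand of the gene, 5′ to 3′, matches on either strand in capitals).
Dusp1, chr17:26508473-26508722, minus strand: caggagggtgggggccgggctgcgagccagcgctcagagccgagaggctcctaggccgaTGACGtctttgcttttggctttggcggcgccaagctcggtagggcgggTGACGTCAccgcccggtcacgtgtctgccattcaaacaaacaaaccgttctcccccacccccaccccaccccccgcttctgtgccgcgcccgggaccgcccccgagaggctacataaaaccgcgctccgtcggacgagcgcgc
Cck, chr9:121495695-121495944, minus strand: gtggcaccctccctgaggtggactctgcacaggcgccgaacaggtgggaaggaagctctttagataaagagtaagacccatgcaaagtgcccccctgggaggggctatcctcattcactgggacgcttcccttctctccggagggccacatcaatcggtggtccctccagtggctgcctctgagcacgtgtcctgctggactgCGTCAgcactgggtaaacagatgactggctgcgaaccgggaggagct
Isl1, chr13:116309689-116309938, minus strand: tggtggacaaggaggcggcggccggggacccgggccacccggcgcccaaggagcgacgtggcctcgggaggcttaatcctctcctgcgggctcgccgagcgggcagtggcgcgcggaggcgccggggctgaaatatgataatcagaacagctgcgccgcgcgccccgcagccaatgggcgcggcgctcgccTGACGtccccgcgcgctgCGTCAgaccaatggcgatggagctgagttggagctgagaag
The full element TGACGTCA was found before Dusp1, where it contains the core on both strands, and in 1.55% of the 32851 promoters of this length. In all it stood before 2 of 23 higher genes (8.7%) and 1 of 10 lower genes, KLHL12 (10%), against 2.67% of the genes tested. The core stood before 12 of the 23 genes with an entry that were higher in DRD1A MSNs (52.2%), before 4 of 10 that were lower (40%) and before 11 of 14 immediate early genes (78.6%). Of all genes with an entry 19.8% held it, of the genes tested 26.3%, and of those detected on at least 6 of the 11 arrays 33.1%. The promoters of Drd1, Drd2, Pdyn, Sfxn1 and Gadd45g held neither motif in this window. A match is a run of letters and not a measured binding site.

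Of 14 genes that the study lists for pathways of this comparison, 5 were called (0.213% of all genes were). GADD45G, DUSP1 and PDE1A were higher in DRD1A MSNs, and DRD2 and RASGRP2 were lower. The study chose this list on these samples, so it is not independent evidence of its direction, and its median difference was 0.77. Those that missed the threshold included STMN1, a microtubule destabiliser (0.76, adjusted p = 0.0531), GNAL, the Golf alpha subunit (-0.67, adjusted p = 0.073), GUCY1A3, a subunit of soluble guanylate cyclase (-1, adjusted p = 0.0812), and GNG13, a G protein gamma subunit (1.29, adjusted p = 0.0988). PRKX and RASGRP4 were at -0.19 and -0.07. Other PRKX probes had the opposite sign, at 0.60 (adjusted p = 0.0993, with the groups apart) and 0.27. Other RASGRP4 probes were at -0.11 and 0.02.

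Markers of other cell types were measured in the same way. Of 7 measured markers of cortical excitatory neurons all had a positive difference (46.1% of all genes did), with a median of 0.61. The groups were apart in 2, with DRD1A MSNs higher (0.826% of all genes), and 1, NEUROD2, was called (0.213% of all genes). NEUROD6, a cortical bHLH factor, had signals of 10.34, 10.67 and 11.03 in DRD1A MSNs, against 9.48, 8.18, 9.43 and 8.23 in DRD2 MSNs. Its groups were apart, with a difference of 1.87 (SE 0.39, adjusted p = 0.0601). The mean of the cortical list lay between 8.43 and 8.99 on the DRD1A arrays, lowest on 1E, against 7.71 to 7.95 on 3 DRD2 arrays and 8.58 on 3E. The array 3E was thus the highest DRD2 array in both the cortical and the immediate early gene list, and 1E the lowest DRD1A array in both, although in the cortical list 1B, at 8.47, was close to it. The part of cortical RNA in the immediate early gene values and in CCK was not tested.

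**Figure D4:**
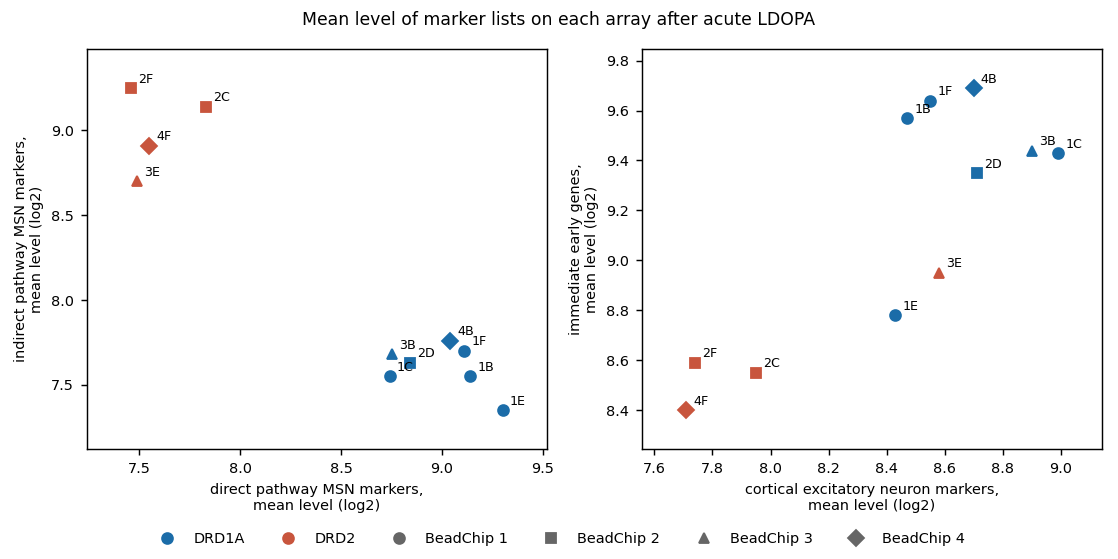
Mean log2 signal of gene lists on each array, DRD1A MSNs and DRD2 MSNs by colour and the BeadChip by marker shape: direct against indirect pathway markers (left) and cortical excitatory neuron markers against immediate early genes (right). The 2 lines form separate groups on the left (direct markers 8.74 to 9.30 and 7.46 to 7.83), and on the right 1E is the lowest DRD1A array and 3E the highest DRD2 array on both axes.

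Of 8 oligodendrocyte markers 6 had a negative difference, with a median of -0.42. An unadjusted p below 0.05 was found in 2 (9.48% of all genes) and none was called, for example MBP, myelin basic protein (-1.39, adjusted p = 0.353). The list's mean lay between 8.46 and 9.52 on the DRD1A arrays, against 9.06 to 9.57 on the DRD2 arrays. The cholinergic interneuron markers, whose cells also use the DRD2 promoter, had a median of -0.03, with 7.06 to 7.24 on the DRD1A arrays and 7.13 to 7.32 on the DRD2 arrays. CHAT, which makes acetylcholine, differed by -0.33 (adjusted p = 0.516), SLC18A3, its vesicular transporter, was detected on no array of the comparison, and none of the 7 measured was called, with 1 at an unadjusted p below 0.05. No marker of GABAergic interneurons, astrocytes, microglia or endothelial cells was called, and their medians lay between -0.10 and -0.01. None of 62 ribosomal protein genes was called, with 53 above 0 (46.1% of all genes), a median of 0.34 and 17 at an unadjusted p below 0.05 (9.48% of all genes). None of 76 oxidative phosphorylation genes was called either (median 0.16, 18 at an unadjusted p below 0.05).

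The difference between the lines was also measured after chronic LDOPA, on other mice. There 9 probes were called (0.0279%, with 7 to 49 over the alternatives run; median centering gave 31, against 7 for the acute comparison), 5 of which were among the 51 of the acute comparison: DRD2 (-3.34), SFXN1 (2.26), TNNT1 (2.97) and both EYA1 probes (2.17 and 2.20). Of the 51 acute probes 48 kept their sign after chronic LDOPA, against 51.7% of all probes, and 50 had a smaller difference. Their median size was 1.28 after acute LDOPA, and their median difference in the same direction was 0.53 after chronic LDOPA. The probes were chosen for a large acute difference, a choice that by itself favours a smaller difference in other mice. HIST1H1C (-0.06), FARP2 (-0.03) and CRYM (0.26) were near 0 after chronic LDOPA. KIF1A had the opposite sign there (0.46, SE 0.304) without being called. SP9 (-2.25), SLC35D3 (1.16) and ISL1 (1.27) had values near their acute ones, also without being called.

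The test of the acute against the chronic difference called none of the 32255 probes, with a smallest adjusted p of 0.427 (limma), while 1796 had an unadjusted p below 0.05 (5.57%). Among them were 27 of the 51 called probes. These were chosen for a large acute difference on the same arrays, which by itself favours a small interaction p. KIF1A had the smallest unadjusted interaction p of the called genes (7.85e-05, interaction -2.06), followed by A330046P14RIK (1.68e-04) and KLHL12 (4.93e-04). DRD2, SFXN1 and EYA1 had interactions of -0.49, 0.45 and 0.20 with unadjusted p of 0.073, 0.321 and 0.627.

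The length of the list of called genes changed when single arrays were left out and with the handling of the BeadChips. The cause was not tested, and leaving out BeadChip 1 also leaves fewer DRD1A arrays. All 49 called genes had the same sign within each of BeadChips 2, 3 and 4. That is no separate check, since in 46 of the 51 called probes the groups did not overlap on these same arrays. Some values within a BeadChip were near 0, such as TNNT1 at 0.03 and PGBD1 at -0.06 on BeadChip 3. With the BeadChip as a fixed block 14 probes were called (7 higher and 7 lower) and without BeadChip 1 it was 16. With the BeadChip as a random block, whose estimated correlation was -0.011, 55 were called, all 51 among them. Leaving out the DRD2 arrays 2C, 2F and 4F gave 91, 23 and 27 called probes, and leaving out the DRD1A array 4B gave 30. DRD2, PDYN, SFXN1, EYA1, PENK1, PKIB, BAG1 and TUSC1 were the 8 called genes that passed whichever single array was left out. The 4 DRD2 arrays limit the precision of every value. The p-values rest on a spread between single mice that was pooled over the acute and chronic groups and moderated over all probes. Without the block that spread also holds differences between BeadChips.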

How the data were processed

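RNA pulled down with EGFP-L10a ribosomes (1 ng, amplified to cDNA) was hybridised to Illumina Mouse WG-6 v2.0 BeadChips. The authors exported unlogged mean bead intensities per probe from GenomeStudio, with no normalization and no background subtraction, and the deposited detection p-values give the chance that a probe's signal is background. The authors' quantile normalized log2 values, deposited beside them, served as an alternative. Columns of 4 arrays with no listed sample were not used.

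The intensities of 23 arrays were quantile normalized, set to a floor of 1 and taken to log2. Probes above the 20th percentile on every array of at least 1 group were kept (32255 of 45281, 71.2%). A kept probe near background in 1 line passes through the other line only. DRD2 chronic arrays 1D and 4A, which correlated at r = 0.99 against at most 0.928 for any other pair, were averaged and counted as 1 sample. A model of 4 group means over 22 samples was fitted with limma 3.58.1 in R 4.3.3, and its moderated two-sided p-values (19.4 degrees of freedom) were adjusted by Benjamini-Hochberg over all kept probes. A probe counted as detected at a detection p below 0.05.

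A gene was represented by its brightest kept probe, or by its called probe with the smallest p. Named were the pathway markers, all called genes with a gene name (others only among the 10 smallest p), called list members and up to 4 others with the largest differences, receptor gene neighbours and RPL10A. The comparison, its members and the gene lists were chosen with earlier results of these data known. Alternatives were other normalizations, background corrections, filters, tests and probes, the BeadChip as a block or left out, and leaving out each array. Values of a few genes are not reported here, although the counts hold them. Promoter sequences and gene order came from RefSeq. The number of arrays limits the precision.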

Additional observations from a re-analysis of the deposited data

Results flagged for a closer look

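In 16 of 196 groups of arrays examined, 1 array stood far from the others of its line; chance gives about 1 in 20. The array 1E of DRD1A MSNs was low in GADD45G (11.02, next lowest 12.22), COQ10B (8.22, next 9.30), BTG2 (9.08, next 10.85) and ARC (9.12, next 10.61). The other DRD1A arrays concerned were 1F for KIF1A (8.19, next highest 7.29) and ANKK1 (7.53, next 7.10), 2D for FARP2 (8.13, next 7.46), 4B for EBF1 (7.81, next 7.39) and 1C for USP28 (7.23, next 7.12).

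The array 2C of DRD2 MSNs was high in the direct pathway genes DRD1A (8.42, next highest 7.47) and TAC1 (9.71, next 7.96) and in 2310016M24RIK (10.45, next 9.01), and low in FOSB (7.87, next lowest 8.21). On 2F, CHAT was high (8.28, next 7.28) and EYA1 was low (6.95, next 7.07), and EYA1 was at background on all DRD2 arrays. On 3E, CPLX2 was low (8.72, next 10.14).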

How the results depend on the processing

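The comparison after acute LDOPA gave 51 called probes. It gave 14 with the BeadChip as a fixed block (50% of them higher, against 66.7%), 16 without BeadChip 1, 17 with the 11 acute arrays normalized and fitted alone, 7 with median centering in place of quantile normalization, 89 with a filter on detection p and 30 with the analysis of variance and Tukey test of the study's methods. Of the 51 probes, 10, 9, 11, 7, 49 and 23 were called again in these. Leaving out 1 array at a time gave 23 (without DRD2 array 2F) to 91 (without 2C), with 27 without 4F and 30 without the DRD1A array 4B; the cause was not tested. A random BeadChip block gave 55. After chronic LDOPA the 9 called probes became 17 without the acute DRD1A array 1E. The difference between acute and chronic LDOPA had 0 called probes in all of these that could test it, except 1 without 2C, so leaving out single arrays gave 0 to 1. DRD2, PDYN, SFXN1 and at least 1 EYA1 probe were called under each of the first 4 of these settings.

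Other probes of called genes had the opposite sign: PKIB (-0.01), TUSC1 (-0.11), 6430527G18RIK (-0.02), LAMP2 (0.01 and 0.05), TXN1 (-0.03), ASCC3 (0.12), LOC100047353 (-0.05), DVL3 (-0.29) and BBS9 (-0.10). Those of PKIB and TXN1 and the LAMP2 probe at 0.01 were detected on 0 arrays, and those of TUSC1 and 6430527G18RIK on 1 each. Among 23 other probes detected on at least 4 DRD1A or 2 DRD2 arrays, 18 had the sign of the called probe. No paired analysis was possible because replicate names pair no mice across the lines; the BeadChips that both lines share entered as the block above. Genes near background, such as EYA1 and DVL3 in DRD2 MSNs, have only a bound there.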
